A study of Mus musculus with 9 samples.

Results

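The 10 genes described here encode the IL-2 receptor chains, the kinases bound to them, both STAT5 proteins and 3 feedback inhibitors, and were chosen by symbol from 34092 gene rows: Il2ra, Il2rb, Il2rg, Jak1, Jak3, Stat5a, Stat5b, Cish, Socs1 and Socs2. RNA was sequenced from regulatory T cells (Treg cells, the suppressive CD4 T cells whose lineage is set by the transcription factor Foxp3) sorted from mice without stimulation. CNS2KO cells carried the Foxp3deltaCNS2-gfp allele, in which the conserved noncoding sequence CNS2, an intronic enhancer of Foxp3, is missing, and WT cells carried Foxp3gfp, so that both groups had a green fluorescent reporter at Foxp3. The labels list 3 CNS2KO and 6 WT samples and do not give age, nor whether samples came from separate mice. The p-values therefore set group differences only against the scatter of these samples, and part of that scatter may be technical. The number 407 stands on a CNS2KO and on a WT sample, its columns were left out, and 2 CNS2KO libraries (399 and 408) were compared with 5 WT libraries (398, 402, 405, 1032 and 1037).

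IL-2 binds a receptor of alpha (Il2ra), beta (Il2rb) and shared gamma (Il2rg) chains. The alpha chain raises the affinity and does not signal, while the beta and gamma chains bring together the kinases JAK1 and JAK3, which phosphorylate STAT5A and STAT5B. STAT5 dimers then enter the nucleus, bind DNA (among other places at CNS2 of Foxp3) and switch on inhibitors of the same pathway, such as Cish and the Socs genes. Treg cells make little IL-2 themselves and depend on IL-2 from other cells.

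Reads assigned to genes numbered 16557424 to 21836578 per library, so that the floor of 3 reads was 0.142 to 0.182 counts per 1000000 reads on genes (CPM, scaled by the trimmed mean of M values), counting error only. The Treg markers Foxp3, Cd4, Cd3e, Ctla4 and Ikzf2 summed to 2901 and 3231 CPM in the CNS2KO libraries and 2936 to 3381 CPM in the WT libraries. B cell markers summed to 1101 and 1362 CPM in CNS2KO and 1190 to 1498 CPM in WT, mostly Ighm and Cd74. Markers of CD8 T and NK cells (46.0 and 48.3 CPM in CNS2KO, 44.2 to 59.1 CPM in WT), myeloid cells (82.7 and 95.2 CPM in CNS2KO, 65.4 to 89.8 CPM in WT) and activated conventional T cells (25.2 and 34.9 CPM in CNS2KO, 27.0 to 45.2 CPM in WT) were low, with Ncr1 and Il17a at 0 reads in all 7 libraries. Erythroid markers summed to 151 CPM in CNS2KO 399 and 30.9 CPM in CNS2KO 408, against 6.32 to 27.6 CPM in WT, and 5 of the 5 tested had positive fold changes. In bulk RNA, fewer cells of a type and less RNA per cell cannot be told apart.

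The promoters of the feedback gene Cish, its relative Socs1 and the receptor gene Il2ra are shown because STAT5 binds paired TTC and GAA letters. Capitals mark each TTCNNNGAA match. Whether STAT5 binds within these windows was not tested. The windows run from 250 bases before the annotated start, 5′ to 3′, from RefSeq on GRCm38.p6, which is not the mm9 build that the submitters' processing notes name. Cish upstream lies at chr9:107296409-107296658 (plus strand), Socs1 at chr16:10785537-10785786 (minus) and Il2ra at chr2:11642542-11642791 (plus). The Cish pair starts at the annotated start itself, chr9:107296659-107296678.
Cish, match pair at the start: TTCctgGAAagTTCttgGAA
Cish, upstream: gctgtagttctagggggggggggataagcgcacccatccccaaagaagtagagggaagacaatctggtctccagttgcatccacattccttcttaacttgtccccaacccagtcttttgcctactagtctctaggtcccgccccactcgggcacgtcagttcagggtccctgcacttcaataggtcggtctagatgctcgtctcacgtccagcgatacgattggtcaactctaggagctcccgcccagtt
Socs1, upstream: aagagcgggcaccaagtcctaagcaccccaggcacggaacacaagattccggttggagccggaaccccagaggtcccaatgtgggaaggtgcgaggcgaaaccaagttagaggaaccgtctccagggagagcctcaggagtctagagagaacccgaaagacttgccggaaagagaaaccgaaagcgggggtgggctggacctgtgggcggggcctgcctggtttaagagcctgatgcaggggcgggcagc
Il2ra, upstream: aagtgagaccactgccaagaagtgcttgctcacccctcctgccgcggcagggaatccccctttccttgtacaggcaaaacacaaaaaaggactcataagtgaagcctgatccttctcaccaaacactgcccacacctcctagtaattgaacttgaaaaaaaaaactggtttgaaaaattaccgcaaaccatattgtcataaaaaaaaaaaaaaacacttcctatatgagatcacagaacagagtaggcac

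Cish was the only gene of the 8 with a promoter in the table whose window of 300 bases (250 before and 50 after the start) held TTCNNNGAA, which reads the same on both strands. Its matches begin at bases 1 and 12 counted from the start. Il2rb and Socs2 had no promoter in the table, so they were not searched. Of 32851 promoter windows in the table, 8.3% held at least 1 match and 0.457% held 2 or more. A match is a description of letters, and its absence says only that these letters are not in this window.

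Per kilobase of transcript, the receptor chains and JAK1 stood above the rest of the pathway in both genotypes. Il2rg, the shared gamma chain, averaged 760.5 CPM per kb in CNS2KO and 780.3 CPM per kb in WT, and Il2ra, the alpha chain, averaged 406 CPM per kb in CNS2KO and 415 CPM per kb in WT. Jak1 (243 CPM per kb in CNS2KO and 263 in WT) and Il2rb, the beta chain (253 in CNS2KO and 219.8 in WT), followed, and their WT ranges overlapped. These 4 levels lay above those of 97.4% to 99.4% of the tested genes with a known transcript length in WT.

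The STAT5 genes and the inhibitors were lower on the scale of CPM per kb. Cish, an inhibitor that binds the activated receptor, averaged 68.3 CPM per kb in CNS2KO and 73.0 in WT, above its neighbour in the order, Socs2, without overlap in WT. Socs2 (33.9 CPM per kb in CNS2KO and 22.8 in WT), Stat5b (23.1 in CNS2KO and 22.7 in WT) and Stat5a (15.2 in CNS2KO and 15.8 in WT) formed a run in which each WT range overlapped the next. Jak3 (2.40 CPM per kb in CNS2KO and 3.06 in WT) and Socs1 (0.494 in CNS2KO and 0.336 in WT) closed the order, and each lay apart from its neighbours in WT. In WT, 35.1% of the tested genes with a known transcript length had a lower level per kb than Jak3 and 7.72% a lower one than Socs1. Lengths are those of 1 principal transcript per gene in GENCODE M21, which is also of another build than the files. The annotation behind the deposited counts is not given in the sources used here, so whether the rows of Jak3 and Socs1, both low for T cells, cover the whole transcripts is not known. If they do not, the levels and places of these genes given above are too low.

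**Figure D1:**
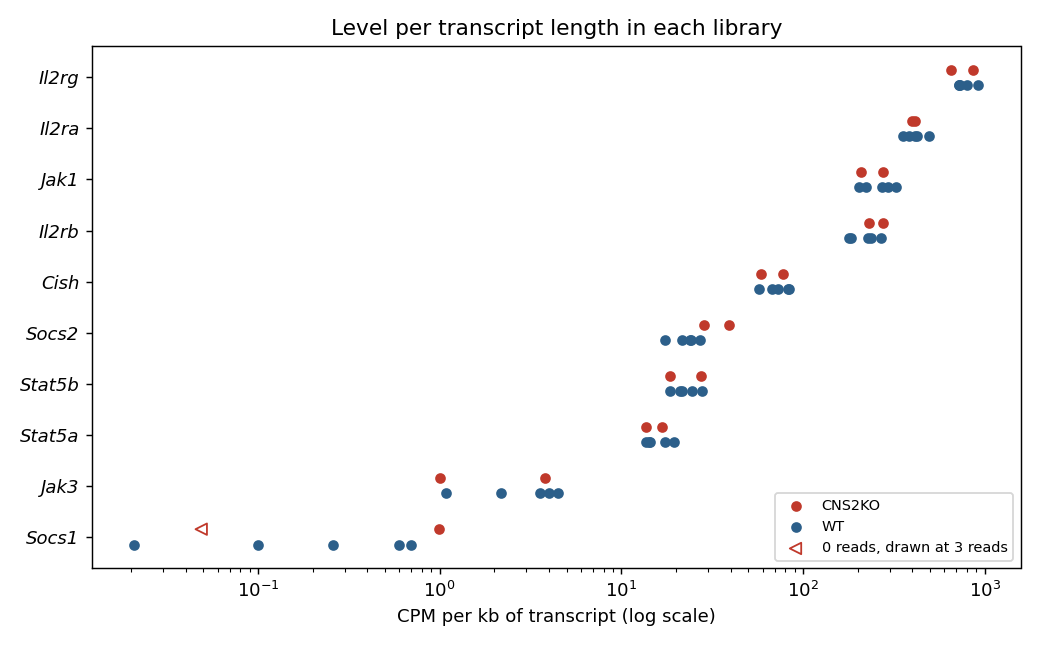
Level per kilobase of transcript (CPM per kb, log scale) of the 10 genes, ordered by their WT mean, with 1 point per library for CNS2KO and WT. Il2rg averaged 760.5 in CNS2KO and 780.3 in WT, and Socs1, with 0 reads in CNS2KO 399 drawn as an open triangle at the floor of 3 reads, averaged 0.494 in CNS2KO and 0.336 in WT.

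The first comparison asked whether the receptor chains differed in resting cells that lack CNS2. No chain passed the test at a false discovery rate (FDR) of 0.05 by edgeR's quasi-likelihood test, which 0% of 14424 tested genes passed, and the genotypes overlapped in all 3 chains. Il2ra stood at 1749 and 1832 CPM in CNS2KO 399 and 408, and at 1827, 1563, 1885, 2193 and 1691 CPM in WT 398, 402, 405, 1032 and 1037. The WT libraries spanned both CNS2KO values. The log2 fold change of CNS2KO over WT was -0.03 (SE 0.15), and its 95% interval, as a fold, ran from 0.779 to 1.23. Over all 7 libraries Il2ra was steady: 14.6% of 48 tested genes of like level had a smaller standard deviation of log2 CPM.

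Il2rb stood at 965 and 1157 CPM in CNS2KO 399 and 408, and at 1135, 768, 993, 960.2 and 753 CPM in WT 398, 402, 405, 1032 and 1037. CNS2KO 408 was the highest library of all, just above WT 398, and CNS2KO 399 lay in the middle of the WT range. CNS2KO over WT came to 0.20 on the log2 scale (SE 0.18, 95% interval -0.19 to 0.60). Il2rg stood at 1446 and 1094 CPM in CNS2KO 399 and 408, and at 1224, 1335, 1210.3, 1204 and 1543 CPM in the same WT order. CNS2KO 408 was the lowest library of all and CNS2KO 399 the second highest, so the CNS2KO libraries deviated to opposite sides (log2 fold change -0.04, SE 0.16). In GENCODE M21, 30.5% of the exonic bases of Il2rg are shared with Gm20489 on the same strand, which had at most 1 read in any library. Reads that fit more than 1 gene were set apart as ambiguous (0.151 to 0.165% of each column) and counted for neither. The Gm20489 row therefore does not show whether Il2rg lost reads.

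Of the kinases, Jak1 had many reads and Jak3 few in both genotypes. Jak1 stood at 1026 and 1354 CPM in CNS2KO 399 and 408, and at 1434, 1086, 1342, 1599 and 995 CPM in WT 398, 402, 405, 1032 and 1037. The groups overlapped (log2 fold change -0.12, SE 0.20). Jak3, the partner kinase that binds the gamma chain, stood at 4.07 and 15.2 CPM in CNS2KO 399 and 408, and at 18.0, 4.37, 8.76, 16.0 and 14.3 CPM in the same WT order. These rest on 86 and 318 reads in CNS2KO and 72 to 331 reads in WT. The limit on the coverage of the Jak3 row, given with the levels per kilobase, holds here too.

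Jak3 split both genotypes: CNS2KO 399 and WT 402 were the lowest libraries, and the other libraries lay at 8.76 CPM or more. Its SD of log2 CPM over 7 libraries, 0.90, was larger than that of 91.7% of 1417 tested genes of like level. The log2 fold change of -0.35 (SE 0.60, 95% interval -1.67 to 0.97) followed CNS2KO 399: without it the value was 0.31, and without CNS2KO 408 it was -1.61. In GENCODE M21, 7.55% of the exonic bases of Jak3 are shared with Insl3, a gene on the same strand whose row held 0 reads in every library. As for Il2rg, this does not show whether reads in the shared stretch were set apart as ambiguous.

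Stat5a and Stat5b, neighbouring genes of closely related proteins, did not differ between the genotypes beyond the spread of the libraries. Stat5a stood at 53.2 and 65.2 CPM in CNS2KO 399 and 408, and at 67.4, 75.7, 56.2, 55.3 and 53.2 CPM in WT 398, 402, 405, 1032 and 1037. Stat5b stood at 96.9 and 144 CPM in CNS2KO 399 and 408, and at 146, 109, 127, 112 and 96.3 CPM in the same WT order. CNS2KO 399 lay at the low end of both genes beside WT 1037, and CNS2KO 408 in the upper part of both ranges. Log2 fold changes were -0.06 (SE 0.22) for Stat5a and 0.03 (SE 0.22) for Stat5b.

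The balance of the STAT5 genes within a library does not depend on how libraries are scaled. It can still go with other library properties, such as the balance of long and short transcripts described below. The log2 ratio of Stat5a reads to Stat5b reads was -0.87 and -1.14 in CNS2KO 399 and 408, and -1.11, -0.53, -1.18, -1.02 and -0.86 in WT 398, 402, 405, 1032 and 1037. All 7 libraries had more Stat5b than Stat5a reads, and WT 402 had the highest share of Stat5a. The means were -1.005 ± 0.20 in CNS2KO and -0.94 ± 0.26 in WT (SD, n = 2 and 5), a difference of -0.07 with p = 0.762 by a two-sided exact permutation test. That test has 21 assignments and cannot give a p under 0.048. Reads that aligned to more than 1 place made up 14.7 to 19.7% of each column and were not assigned to genes, so stretches that the STAT5 genes share may be undercounted in both.

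**Figure D2:**
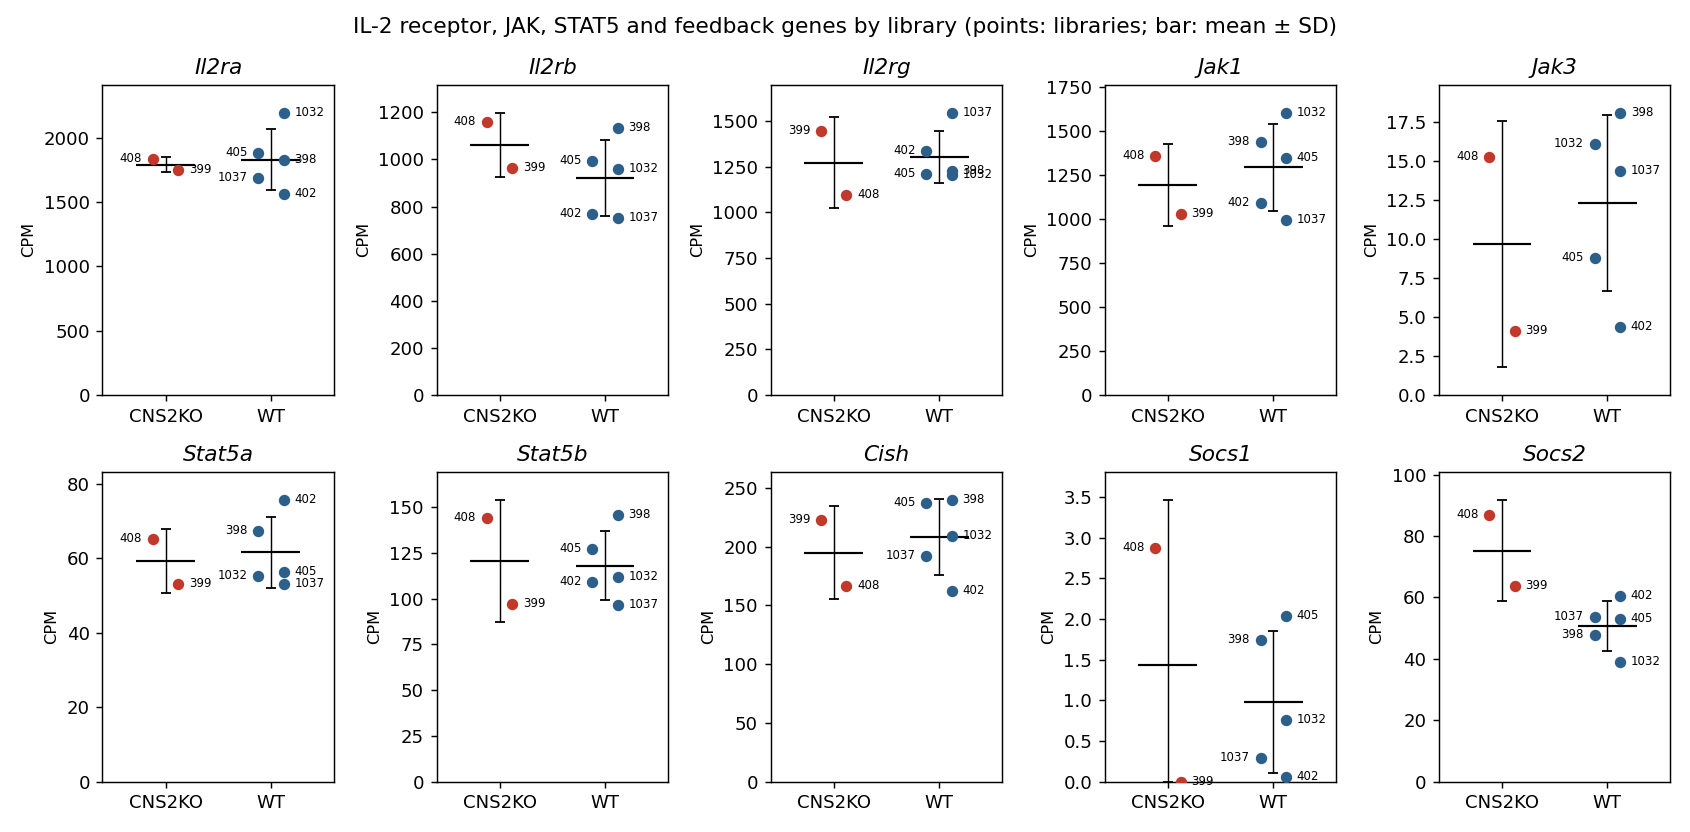
CPM of each of the 10 genes in each library, labelled by library number, on linear axes from 0, with CNS2KO left of WT and bars for mean ± SD (the lower bar of Socs1 in CNS2KO stops at 0). Socs2 is the gene in which both CNS2KO libraries (63.6 and 87.0 CPM) lie above all WT libraries (38.8 to 60.5 CPM).

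Among the feedback genes, the genotypes overlapped in Cish. Socs2 was higher in both CNS2KO libraries without passing the test over all genes, and Socs1 was at the edge of detection. Cish stood at 223 and 167 CPM in CNS2KO 399 and 408, and at 239.7, 162, 237, 209 and 192 CPM in WT 398, 402, 405, 1032 and 1037. The CNS2KO libraries fell in the upper and in the lower part of the WT range (log2 fold change -0.09, SE 0.20, 95% interval -0.53 to 0.35). The antisense gene Gm17041, on the other strand across 7.46% of the exonic bases of Cish in GENCODE M21, had 259 to 379 reads per library, against 2675 to 4714 for Cish. Whether counting used strand is not stated in the labels. To which of these genes reads in the shared stretch belong, or whether they were set apart as ambiguous, is therefore not known.

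Socs2, which with ubiquitin ligase partners dampens growth hormone and cytokine signals, stood at 63.6 and 87.0 CPM in CNS2KO 399 and 408, and at 47.8, 60.5, 52.8, 38.8 and 53.6 CPM in WT 398, 402, 405, 1032 and 1037. Both CNS2KO libraries lay above every WT library, CNS2KO 399 by a small margin over WT 402. The mean was 75.3 ± 16.5 CPM in CNS2KO and 50.7 ± 8.05 CPM in WT (SD, n = 2 and 5), a ratio of 1.48. On the log2 scale CNS2KO exceeded WT by 0.57 (SE 0.23, 95% interval 0.07 to 1.07), with an unadjusted p of 0.0285 and an adjusted p of 0.9999 by edgeR's quasi-likelihood test. With 21 assignments, p = 0.048 in the exact permutation test is the smallest it can give, and 10 such tests were run.

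Separation of this kind also occurred elsewhere in the table. Both CNS2KO libraries lay above the WT range in 3.76% of 14424 tested genes, and outside it on either side in 6.76%, and 1 of the 10 genes here is near that share. An unadjusted p under 0.05 was found in 2.50% of tested genes and in 1 of the 10. The size of the Socs2 difference rested on CNS2KO 408: the log2 fold change was 0.32 without it and 0.78 without CNS2KO 399, and 0.49 against WT libraries with numbers of 3 digits only. The summed erythroid markers, also higher in both CNS2KO libraries, were highest in CNS2KO 399, where Socs2 was the lower of the pair. Their part in the Socs2 value was not tested.

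Socs1, a strong inhibitor of JAK kinases, had 0 and 60 reads in CNS2KO 399 and 408, and 32, 1, 40, 14 and 5 reads in WT 398, 402, 405, 1032 and 1037. These are 2.87 CPM in CNS2KO 408 and at most 2.04 CPM in WT, while the count of 0 in CNS2KO 399 allows up to 0.142 CPM. CNS2KO 399 and WT 402, the libraries with least Jak3, also had least Socs1. With such counts the fitted log2 fold change of 0.55 (SE 1.64, 95% interval -3.05 to 4.15) places no useful limit on a difference, and its sign was negative by limma-voom (-1.29).

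**Figure D3:**
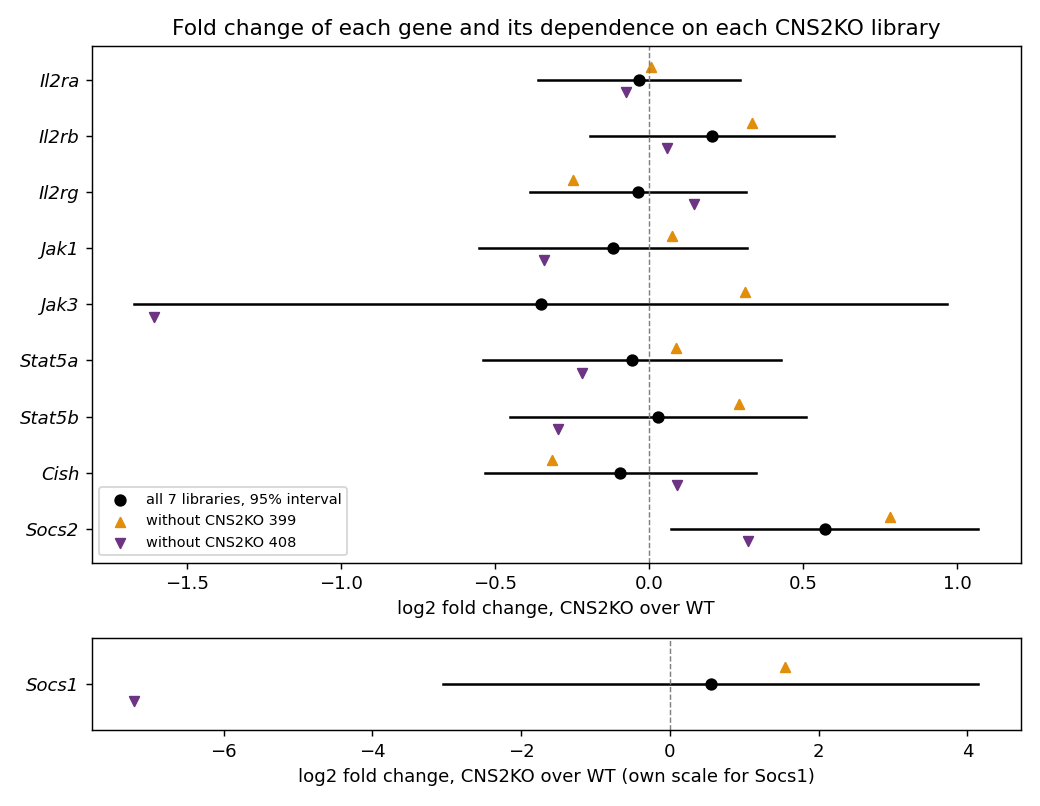
Log2 fold change of CNS2KO over WT for each gene (circle, all 7 libraries, with its 95% interval) and the value without CNS2KO 399 or without CNS2KO 408 (triangles), with Socs1 on its own scale. Socs2 at 0.57 is the gene whose interval lies above 0, and Il2rb and Socs2 are the genes whose triangles and circle lie on 1 side of 0.

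Over the 10 genes, 0 passed an FDR of 0.05, as did 0% of 14424 tested genes by the same test. Fold changes were positive in 4 and negative in 6 of the 10, with a median log2 value of -0.04, beside -0.03 over all tested genes. All 10 passed the filter on low counts. The intervals limit the size of a difference unevenly: for Il2ra and Il2rg they reached log2 values of -0.36 to 0.30 and -0.39 to 0.31, against -1.67 to 0.97 for Jak3 and -3.05 to 4.15 for Socs1. Il2rb and Socs2 were the 2 genes that kept their sign in all 7 fits that left out 1 library.

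**Figure D4:**
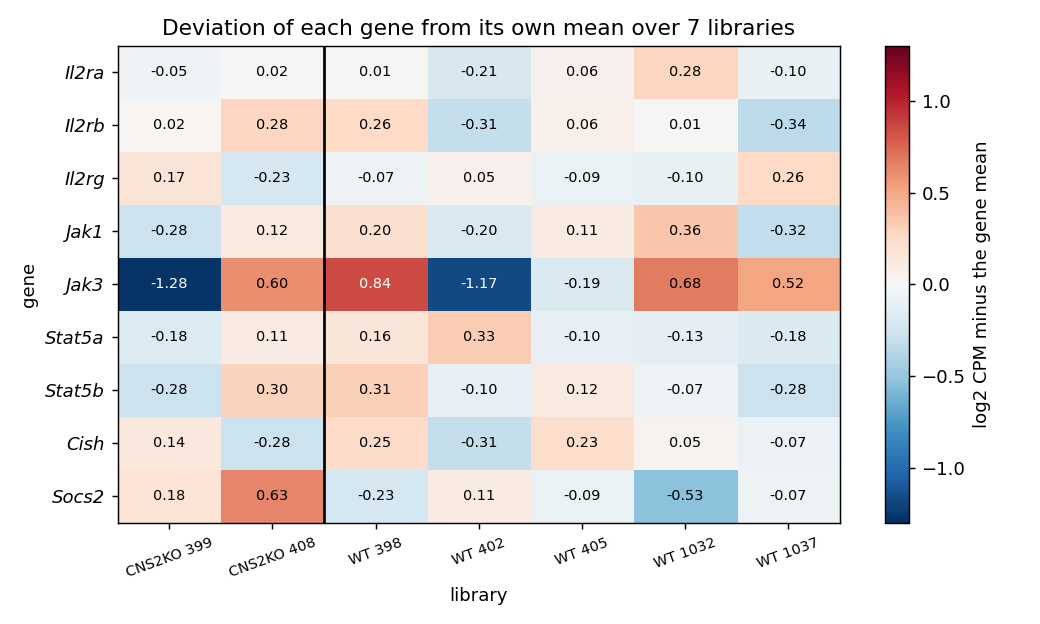
Log2 CPM of 9 genes in each library minus the gene's mean over 7 libraries, CNS2KO columns left of WT (Socs1, with few reads, is not drawn). CNS2KO 399 and 408 deviate to opposite sides for Il2ra (by little), Il2rg, Jak1, Jak3, Stat5a, Stat5b and Cish.

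For some of the genes, the variation among libraries went with the balance of long and short transcripts. The median deviation of the longest 20% of transcripts minus that of the shortest 20% was -0.46 and 0.20 on the log2 scale in CNS2KO 399 and 408, and 0.43, -0.35, 0.07, 0.36 and -0.32 in WT 398, 402, 405, 1032 and 1037. CNS2KO 399, WT 402 and WT 1037, the libraries with the least signal from long transcripts, had the lowest Jak1 and Stat5b (4906 and 5213 bases) of the 7. The same 3 libraries had the highest Il2rg, whose transcript of 1670 bases is the shortest of the 10. They also had the lowest share of reads outside annotated features (47.7, 48.1 and 49.9%, against 50.1 to 54.3% in the other libraries). Their share of reads aligned to more than 1 place was the highest (18.7, 18.1 and 19.7%, against 14.7 to 17.6%). Which of these properties the gene values went with was not tested. Il2ra (4412 bases) was also lowest in CNS2KO 399, WT 402 and WT 1037. Il2rb (4194 bases) was lowest in WT 402 and WT 1037 but not in CNS2KO 399. Stat5a (3888 bases) was lowest in CNS2KO 399 and WT 1037 but highest of the 7 in WT 402 (75.7 CPM). The log2 ratio of Stat5a to the longer Stat5b was highest in CNS2KO 399, WT 402 and WT 1037 (-0.87, -0.53 and -0.86). It was -1.18 to -1.02 in the other libraries. Whether the ratio followed the length balance was not tested. Jak3 (4019 bases) was lowest in CNS2KO 399 and WT 402 but higher in WT 1037 (14.3 CPM) than in WT 405 (8.76 CPM). These genes and the ratio were picked after their values were seen.

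A fit with the length trend of each library taken out, added after seeing the data, gave a smaller SE of the log2 fold change for each of the 10 genes. The SE was 0.14 for Jak1, 0.13 for Il2rb and 0.16 for Stat5b, against 0.20, 0.18 and 0.22 without the correction. It moved less for Il2ra, also a long transcript (0.13 against 0.15), and for the short Il2rg (0.135 against 0.16) and Socs2 (0.20 against 0.23). The log2 fold changes in that fit were -0.08 for Jak1, 0.25 for Il2rb, 0.11 for Stat5b and 0.55 for Socs2. Again 0 of the 10 genes passed. A fit for the GC content of transcripts, likewise added later, also gave smaller SEs for most of the 10, such as Cish (0.18 against 0.20). It did not for Jak1 (0.205 against 0.199) and Stat5a (0.223 against 0.221). Both fits used the 12922 tested genes with known length and GC, against 14424 in the main fit. The SEs may therefore not differ by the correction alone.

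**Figure D5:**
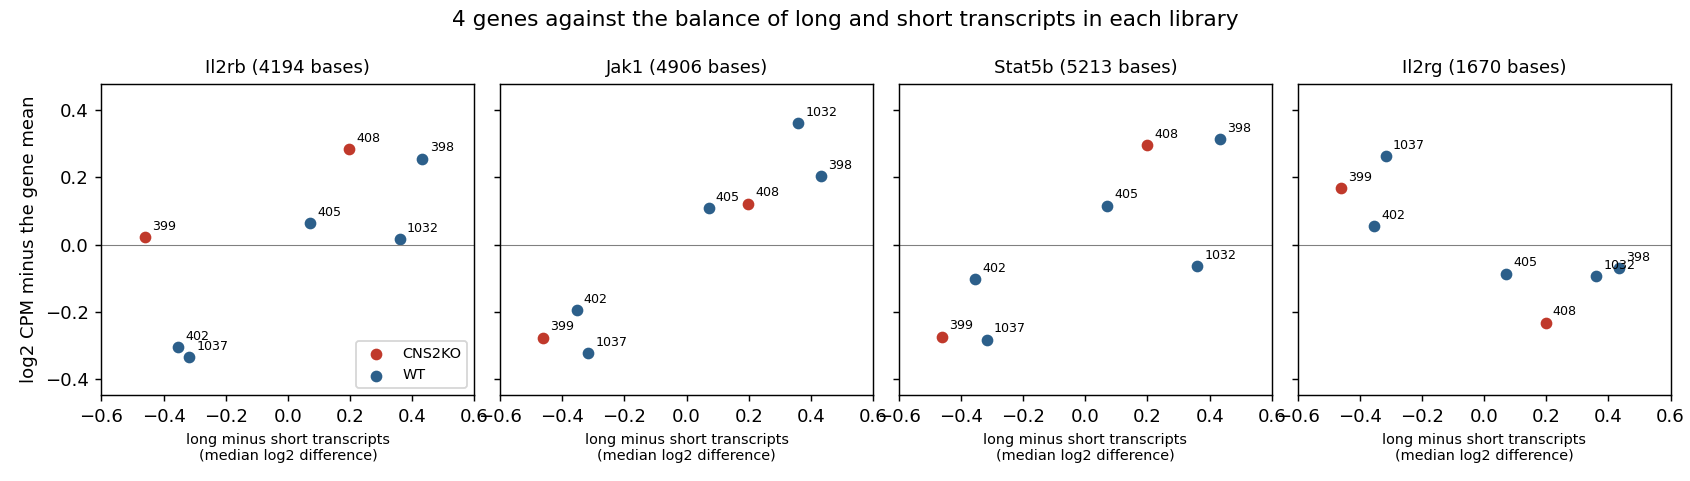
Log2 CPM minus the gene's mean for 4 genes (vertical axis) against each library's median log2 difference between long and short transcripts (horizontal axis), with CNS2KO and WT points labelled by library number. CNS2KO 399 (-0.46), WT 402 (-0.35) and WT 1037 (-0.32) lie at the left, low for Jak1 and Stat5b and high for Il2rg.

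Genes whose profiles over the 7 libraries were most like those of Il2ra, Cish and Socs2 were taken from 4891 candidates with a mean log2 CPM of at least 5, by the root mean square difference of centred log2 CPM. Nearest to Il2ra were Rabgap1l (0.07), the kinase gene Akt2 (0.07) and Mkln1 (0.07), where the median candidate stood at 0.28. Nearest to Cish were the nucleoporin gene Pom121 (0.07), Cdc42se1 (0.08) and Pglyrp2 (0.09), with a median of 0.33. Nearest to Socs2 were Nudcd1 (0.03), the sterol carrier gene Scp2 (0.09) and Herc6 (0.12), with a median of 0.40. Nudcd1 stood at 60.7 and 83.3 CPM in CNS2KO 399 and 408 and at 47.3, 58.6, 48.6, 38.2 and 52.3 CPM in WT 398, 402, 405, 1032 and 1037, close to the CPM of Socs2 in each library, on a scale not divided by length. Jak3 and Socs1 were below the minimum level and were not candidates. None of the rest of the 10 genes was among the 100 nearest to any of these 3, and all profiles share the same libraries and their length balance. Because 100 is a small part of 4891 candidates, their absence says little about whether the genes vary together.

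The wider pathway was read from lists of its other genes. Of the 11 ligands and receptors of the gamma chain family, 7 could be tested and 0 passed (3 positive, 4 negative, median log2 fold change -0.02). Il7r, the IL-7 receptor chain, averaged 395 ± 45.8 CPM in CNS2KO and 465 ± 119 CPM in WT (SD, n = 2 and 5), Il4ra 358 ± 40.2 CPM in CNS2KO and 362 ± 81.0 CPM in WT, and Il21r 124 ± 50.4 CPM in CNS2KO and 115 ± 25.1 CPM in WT. The ligand genes had few reads: Il2 averaged 1.59 ± 0.25 CPM in CNS2KO and 0.89 ± 0.62 CPM in WT, with at most 37 reads, and Il9 and Il21 had 0 reads in every library.

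Of the other 7 JAK and STAT genes, 0 passed (5 positive, 2 negative, median 0.07). Stat6, which acts below the IL-4 receptor, averaged 412 ± 42.6 CPM in CNS2KO and 399 ± 56.3 CPM in WT, and Stat3 241 ± 19.0 CPM in CNS2KO and 248 ± 48.2 CPM in WT. Both CNS2KO libraries lay above the WT range in 2 of the 7, beside 3.76% of all tested genes, named after their values were seen: Jak2 (67.9 ± 1.83 CPM in CNS2KO and 51.6 ± 4.57 CPM in WT) and Stat4 (255 ± 23.6 CPM in CNS2KO and 198 ± 29.0 CPM in WT).

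Of the 14 other negative regulators 0 passed (5 positive, 9 negative, median -0.14). The phosphatase genes Ptpn6 (287 ± 61.7 CPM in CNS2KO and 317 ± 18.3 CPM in WT) and Ptpn2 (256 ± 38.1 CPM in CNS2KO and 214 ± 34.7 CPM in WT) and the STAT inhibitor Pias1 (220.1 ± 11.2 CPM in CNS2KO and 235 ± 6.23 CPM in WT) were the most abundant. The adaptor gene Sh2b3, named after its values were seen, was the 1 gene of the 14 with an unadjusted p under 0.05, beside 2.50% of all tested genes (0.0359 by edgeR's quasi-likelihood test, adjusted p = 0.9999). It stood at 21.7 ± 5.33 CPM in CNS2KO and 32.8 ± 1.98 CPM in WT, with both CNS2KO libraries (17.9 and 25.5 CPM) below the lowest WT library (30.4 CPM). Both CNS2KO libraries lay outside the WT range in 3 of the 14, beside 6.76% of all tested genes. Besides Sh2b3, and also named after their values were seen, Socs3 (44.1 ± 6.85 CPM in CNS2KO and 33.7 ± 5.92 CPM in WT) and Socs7 (34.7 ± 0.60 CPM in CNS2KO and 26.6 ± 7.68 CPM in WT) lay above the WT range in both CNS2KO libraries.

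Of 10 adaptors and kinases of the MAP kinase and PI3K branches, 9 were tested and 0 passed (3 positive, 6 negative, median -0.13). Lck, the kinase bound to CD4 that also contacts the beta chain, averaged 1424 ± 136 CPM in CNS2KO and 1423 ± 43.7 CPM in WT, the PI3K gene Pik3cd 253 ± 11.5 CPM in CNS2KO and 264 ± 55.8 CPM in WT, and Pik3r1 209 ± 15.9 CPM in CNS2KO and 252 ± 11.0 CPM in WT. Pik3r1 was the 1 gene of the 9 in which both CNS2KO libraries lay outside, here below, the WT range, beside 6.76% of all tested genes outside it on either side. Of 21 target genes of IL-2 and STAT5, 0 passed (11 positive, 10 negative, median 0.00). Foxp3, itself such a target, averaged 452 ± 15.9 CPM in CNS2KO and 488 ± 78.9 CPM in WT, the cyclin gene Ccnd2 1070 ± 108 CPM in CNS2KO and 880.0 ± 135 CPM in WT, and Ikzf2, the Helios gene, 956 ± 260 CPM in CNS2KO and 956 ± 46.7 CPM in WT. Both CNS2KO libraries lay above the WT range in 2 of the 21, beside 3.76% of all tested genes: Ccnd2 (by the margin between 993.3 CPM in CNS2KO 408 and 993.0 CPM in WT 405) and, named after its values were seen, the survival gene Mcl1 (323 ± 0.26 CPM in CNS2KO and 289 ± 19.3 CPM in WT).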

How the data were processed

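The authors deposited raw counts for each gene symbol, log2 values of the same libraries and signed scores. Per the submitters' processing notes, STAR, BWA, edgeR and mm9 were used; versions and annotation are not stated there. The 5 summary rows of the counter entered neither library sizes nor tests; reads on genes were 22.0 to 23.7% of each column. In each of 2 tables, 2 value columns share the number 407 and were not used. The groups share no other number.

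The deposited counts were fitted with edgeR 4.0.16 in R 4.3.3 (filterByExpr, TMM, two-sided quasi-likelihood test over 14424 genes, Benjamini-Hochberg adjustment, FDR 0.05); log2 CPM used a prior count of 2. SE is the fold change over the root of F. Exact permutation tests used all assignments of libraries. Alternatives included DESeq2 1.42.0 and limma 3.58.1. Length and GC came from GENCODE M21 for 89.6% of tested genes. The test was also run on counts simulated from the means and scatter of these libraries, with changes set only in genes above a minimum level. Its outcome is not reported here, and it does not bear on genes with few reads such as Socs1. Members and lists were chosen with earlier results of these data known. Named genes are the 10 members, Foxp3, Il2, the 3 most abundant of each list, the leading markers and the 3 nearest profiles; the few others are marked in the text, and a few genes under this rule are not reported here.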

Additional observations from a re-analysis of the deposited data

Results flagged for a closer look

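In 5 WT values per gene, 3 named genes that are not among the 10 had 1 library far from the other 4. Ccnd2 stood at 647 CPM in WT 1032, below the next library at 908 CPM, Ighm at 1309 CPM in WT 1037, above the next at 1056 CPM, and Cd40lg at 42.6 CPM in WT 1037, above the next at 28.8 CPM. In all, 47 sets of values were examined, and chance marks about 1 in 20. The 10 pathway genes and the STAT5 ratio had no such library.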

How the results depend on the processing

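No member passed the threshold in any of the 19 other fits that gave fold changes. Over all genes, 8 were called without the filter on low counts, none of them a member, and 0 in the other fits; Socs1 was not tested with the filter at 10 CPM. Socs2 and Il2rb kept their sign in all fits, from 0.32 to 0.78 and from 0.06 to 0.33 on the log2 scale. By limma on the authors' log2 values, 0 of the 10 genes had an unadjusted p under 0.05, against 1 (Socs2) in the main fit. The same held for edgeR's quasi-likelihood test with WT numbers of 3 digits only, with a term for libraries 1032 and 1037, and without WT 398. Under total count scaling Stat5b stood at -0.032. With WT numbers of 3 digits only, and with a term for libraries 1032 and 1037 (whose columns have another prefix), Il2ra stood at 0.027 in both, Il2rg at 0.016 and 0.015, and Stat5b at -0.079 and -0.080. With length offsets Il2ra stood at 0.020. Socs1 stood at -1.29 by limma-voom and -1.53 by limma on the authors' log2 values. With 1 library left out, log2 fold changes ranged from -0.085 to 0.040 for Il2ra, -0.248 to 0.144 for Il2rg, -0.342 to 0.073 for Jak1, -1.61 to 0.310 for Jak3, -0.218 to 0.088 for Stat5a, -0.295 to 0.291 for Stat5b, -0.315 to 0.091 for Cish and -7.20 to 1.55 for Socs1 (a fitted value against 0 reads, and no bound). The difference in the STAT5 ratio ranged from -0.205 to 0.074. In fits without a CNS2KO library, the remaining library was assumed to vary like the WT libraries. The causes of these changes were not tested. Depth limits Socs1, which rests on 0 to 60 reads per library. No paired analysis was possible because the groups share a single number, 407.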

Other observations

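Each gene has 1 signed value in the authors' deposited table, which names neither groups nor direction. In the authors' deposited table the sign was positive for 7 of the 10 genes and negative for 3, with a median of 0.09, beside 0.01 over all tested genes. In the authors' deposited table Socs1 had 1.27, Il2ra 0.28, Il2rb 0.23, Il2rg 0.15, Stat5a 0.13, Socs2 0.06, Jak1 0.02, Jak3 -0.09, Stat5b -0.13 and Cish -0.14. The Socs2 value there was smaller than those of the 3 receptor chains, which had log2 fold changes nearer 0 than Socs2 in the counts. Because the measure, groups and direction of the deposited values are not named, these orders need not match.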
